A study of Mus musculus with 8 samples.

Results

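The 57 genes described here encode the molecules with which cells hold on to the matrix and to each other: 22 integrin subunits, 4 classical cadherins, 3 genes of the selectin system, 7 adhesion molecules of the immunoglobulin (Ig) type, 19 genes of tight junctions, nectin junctions, desmosomes and focal adhesions, and the receptors Cd44 and Epcam. The list was drawn up by name, and a gene was measured by its brightest probe among those that the scanner software flagged as well above background (here, detected) on at least 4 of 8 arrays. A named probe was found for 56 of the 57 genes (Itgae had none), and 47 were tested among 25065 genes and unnamed transcripts. The expression level given for a gene is the log2 of its probe's processed signal minus the log2 of the array's 75th percentile, so that 0 is the level of the 75th percentile and a difference of 1 is 2-fold. Levels of different genes come from different probes and are not set against each other.

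The study asked which genes change in gonadal white fat when Rap1 (Terf2ip, a subunit of the telomere-protecting shelterin complex) is missing, at an age before the mice become obese. Arrays were hybridised with RNA of 4 Rap1-/- mice and of 4 wild-type (WT) mice, all 10 weeks old, on a C57BL6/129SV (90%:10%) background; the methods name females. The null allele was constitutive and whole-body, made by crossing Rap1 flox/flox mice with mice carrying cre under the EIIa promoter, which acts in the early embryo, and the cre allele was then bred out, so the deletion was not restricted to adipocytes.

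Integrins are pairs of 1 α and 1 β subunit that span the membrane, bind collagen, laminin, fibronectin or receptors on other cells outside, and connect through talin and vinculin to the actin cytoskeleton inside. Classical cadherins, nectins, claudins and desmosomal proteins join neighbouring cells, whereas selectins and Ig-type molecules on vessel walls catch passing leukocytes. Fat tissue holds adipocytes, vessels, fibroblasts, macrophages and lymphocytes under a sheet of mesothelium, and each of these carries its own set of adhesion molecules; in RNA of whole tissue, fewer cells of a type and less RNA per cell cannot be told apart.

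The bases before the start of 3 genes that recur below are shown first, because shelterin, with Rap1 in it, assembles on the telomere repeat TTAGGG. The paper cites earlier work in which Rap1 on chromosome arms preferred tandem copies of this repeat. A single copy was searched for here, so a match is not taken as a Rap1 site. Windows of 250 bases before each listed start were searched for TTAGGG or its reverse complement CCCTAA, on either strand. Some genes had more than 1 listed start, and some starts, such as that of Itga9, lay inside the gene. A match was found in 4 of the 36 genes of the list that had an entry (11.1%), namely Selp, Cldn1, Cd44 and Itgb5. Among all 27025 genes 2880 had one (10.7%). Icam4 and Cldn1, the dim genes with the widest intervals of the list, held no match and 1 match, and in Selp the match lay closest to the start. The sequences are those of RefSeq in GRCm38.p6, on the gene's strand, 5′ to 3′, with the motif in capitals. The match in Cldn1 began 176 bases before the start and that in Selp 19 bases before it.
Icam4, chr9:21029182-21029431, + strand: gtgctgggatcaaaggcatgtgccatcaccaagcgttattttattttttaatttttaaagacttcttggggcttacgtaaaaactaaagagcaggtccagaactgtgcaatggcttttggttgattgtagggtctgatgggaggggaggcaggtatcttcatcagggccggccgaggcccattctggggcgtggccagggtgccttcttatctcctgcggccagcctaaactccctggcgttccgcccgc
Cldn1, chr16:26371840-26372089, - strand: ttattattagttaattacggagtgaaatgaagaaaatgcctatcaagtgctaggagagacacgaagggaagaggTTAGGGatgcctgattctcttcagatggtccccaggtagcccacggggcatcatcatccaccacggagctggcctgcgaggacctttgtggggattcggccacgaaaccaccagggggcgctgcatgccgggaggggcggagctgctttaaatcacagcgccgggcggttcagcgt
Selp, chr1:164115014-164115263, + strand: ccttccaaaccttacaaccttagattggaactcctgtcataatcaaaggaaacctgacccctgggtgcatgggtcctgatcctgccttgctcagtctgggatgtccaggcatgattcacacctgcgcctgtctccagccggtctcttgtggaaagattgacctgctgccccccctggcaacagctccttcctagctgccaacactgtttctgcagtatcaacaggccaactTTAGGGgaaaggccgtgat

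Array quality bears on these values in a few ways. The 75th percentile of signal lay between 302 and 497 intensity units, 59.7% to 65.2% of spots were well above background, and no spot was saturated. The lowest level flagged as detected was -5.52 to -5.35 on Rap1-/- arrays and -5.03 to -4.68 on WT arrays. Detection counts of Icam4, Cldn1, Cldn3, Cldn19 and other dim probes below were thus taken under unlike limits in the genotypes. One Terf2ip probe was detected on 0 Rap1-/- arrays and on all 4 WT arrays, and a second one was brighter in Rap1-/- fat (0.97) than in WT fat (-1.41); where the probes lie relative to the deleted part was not determined. Pairs of arrays had r = 0.976 to 0.992 over all genes when both came from the same genotype, and 0.978 to 0.992 when they did not. Each of the 2 slides held replicates 1 and 2 or replicates 3 and 4 of both genotypes, but Rap1-/- samples lay at positions 3 and 4 and WT samples at positions 1 and 2 of both slides, so position and genotype cannot be told apart. The number of arrays limits the precision of every value below.

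No adhesion gene of the 47 passed an adjusted p of 0.05 (limma, Benjamini-Hochberg, 25065 genes and transcripts), where 1 of all genes (0.00399%) did, which was Terf2ip itself by its second probe. The adjusted p of the 47 genes ranged from 0.874 to 0.997. At an unadjusted p under 0.05, 1 of 47 (Icam4, detected on only 1 WT array) was higher in Rap1-/- fat, where the share among all genes was 1.67%, and 0 of 47 were lower, where it was 3.31%. In 0 of 47 genes did the 4 Rap1-/- arrays lie wholly above or below the 4 WT arrays, against 3.26% of all genes. The fitted difference, Rap1-/- minus WT, was above 0 for 30 genes (63.8%) and below 0 for 17. Its median was 0.05 on the log2 scale beside a median of -0.04 over all genes. Of all genes 40.1% lay above 0 at this scaling, and later counts of genes above or below 0 stand beside that share. Scaling to the spiked-in E1A control RNA instead of the 75th percentile moved the median of the 47 to 0.28 and that of all genes to 0.19. For 24 genes the difference was under 0.1 in size and for 43 it was under 0.3.

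The intervals bound the size of change that these arrays left possible. For 43 of the 47 genes the 95% interval of the difference lay within 2-fold in either direction, and for 31 within 1.5-fold. Of all 25065 genes and transcripts 22462 lay within 2-fold and 16559 within 1.5-fold, which are similar shares. Later counts of intervals within 2-fold stand beside that share. The 4 genes whose interval reached beyond 2-fold were Icam4, Cldn1, Ncam1 and Cdh3.

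**Figure D1:**
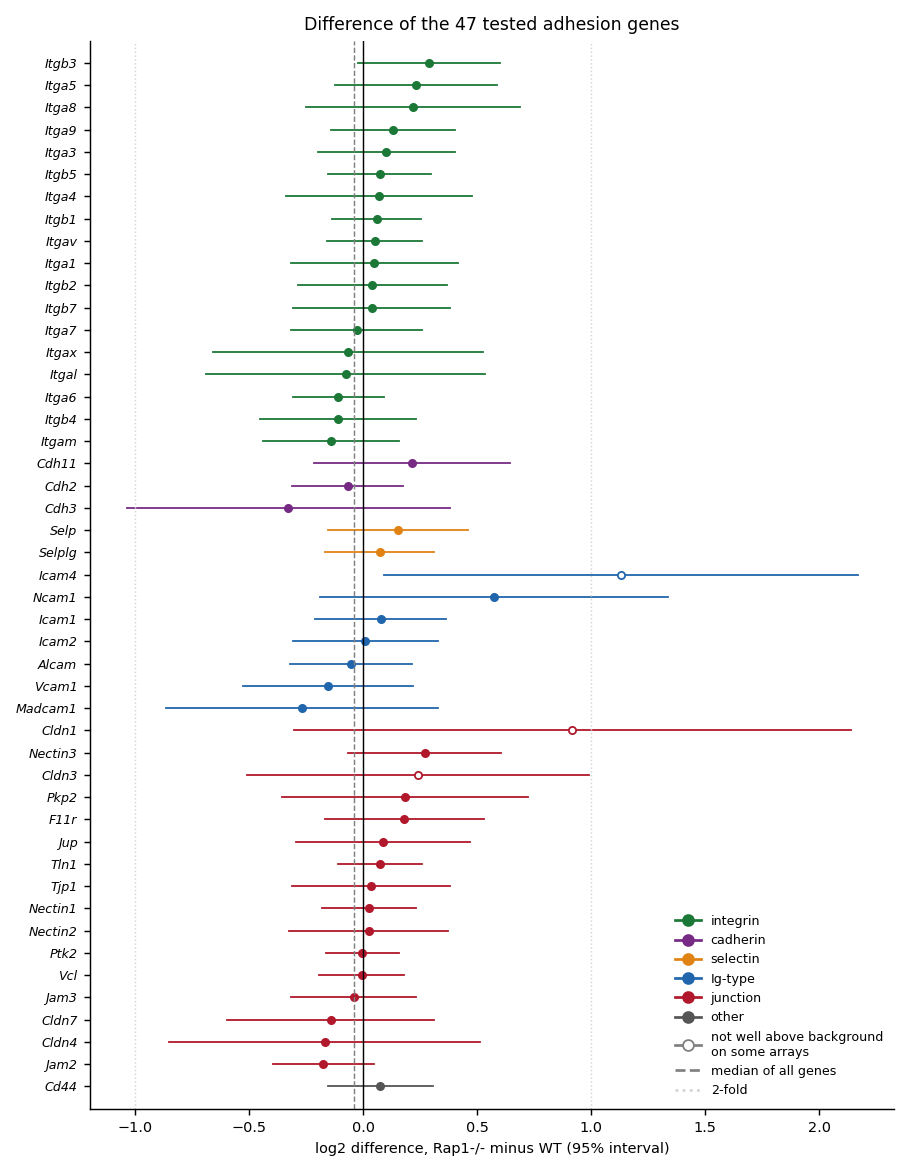
Fitted log2 difference, Rap1-/- minus WT (x axis), of each of the 47 tested adhesion genes (rows, coloured by family), with its 95% interval from limma (n = 4 mice each); open circles mark genes not well above background on every array. All intervals but that of Icam4 include 0, and those of Icam4, Cldn1, Ncam1 and Cdh3 reach beyond the dotted 2-fold lines.

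Of the 22 integrin subunits, 18 were tested; Itga2, Itgb6 and Itgb8 were too dim, and Itgae had no probe. Of the 18, 12 lay above 0 and 6 below, between -0.14 (Itgam) and 0.29 (Itgb3), with a median of 0.05, and 18 of 18 intervals lay within 2-fold. The split moved with the setting: 18 of 18 lay above 0 under E1A scaling (median 0.28), and 9 of 18 without Rap1-/- replicate 1 (median -0.00096). Over the omission of each array in turn the median ran from -0.00096 to 0.10. The 13 subunits that pair into matrix receptors had a median of 0.07, and the 5 leukocyte subunits a median of -0.07, which was 0.16 under E1A scaling. Averaged over the 18 subunits, each set to its own mean, the level was 0.02 ± 0.02 in Rap1-/- fat and -0.02 ± 0.08 in WT fat (SD, n = 4 each).

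Itgb3, the β3 chain that joins αv in the vitronectin receptor and αIIb in the platelet fibrinogen receptor, had the smallest p of the integrins. Its level was 0.09, 0.35, 0.02 and 0.39 in Rap1-/- fat (replicates 1 to 4), against -0.20, 0.22, -0.22 and -0.12 in WT fat. The 3 lowest values were all WT, but the fourth WT array (replicate 2) lay among the Rap1-/- values, so the genotypes overlapped. The difference was 0.29 ± 0.13 (SE, adjusted p = 0.874), a 1.22-fold higher level with an interval of 0.986 to 1.51-fold. A second Itgb3 probe, detected on 2 Rap1-/- arrays and 0 WT arrays, was not tested. The partner Itgav, on the other hand, differed by 0.05 ± 0.09 (SE, adjusted p = 0.942), and Itga2b, the platelet partner, by -0.21 ± 0.34. Of 5 platelet markers, Itga2b among them, 4 had a difference below 0, and the median of -0.21 was the value of Itga2b itself. Ppbp (-0.98) and Gp9 (-0.69) were lower at an unadjusted p under 0.05 (3.31% of all genes were), and in 2 of the 5 the genotypes did not overlap (3.26% of all genes). Their summed level (in units of the 75th percentile) ran the other way, at 14.1 to 20.5 in Rap1-/- fat and 11.5 to 17.2 in WT fat, with Pf4 (0.30) the marker above 0; their part in the Itgb3 value was not tested.

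Itga5 makes the classical fibronectin receptor with Itgb1. Its level was -1.52, -1.23, -1.10 and -0.83 in Rap1-/- fat, against -1.58, -1.32, -1.49 and -1.24 in WT fat. The 2 highest values were the Rap1-/- arrays of slide 2, whereas those of slide 1 lay at the upper end of the WT values (replicate 2) and near their lower end (replicate 1). The difference was 0.23 ± 0.15 (SE, adjusted p = 0.878), and it was 0.07 on slide 1 and 0.40 on slide 2. Itgb1, the β chain that most matrix-binding α chains share, differed by 0.06 ± 0.09 (SE, adjusted p = 0.922) with an interval of 0.910 to 1.19-fold. Its level spanned 2.07 to 2.22 in Rap1-/- fat and 2.00 to 2.25 in WT fat, and a second, dimmer Itgb1 probe differed by -0.06.

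The other receptors that recognise the RGD sequence of fibronectin and vitronectin overlapped the WT values as well. Itga8, a partner of β1 known from mesenchymal cells, spanned -1.87 to -1.40 in Rap1-/- fat and -2.22 to -1.34 in WT fat, with a difference of 0.22 ± 0.20 (SE, adjusted p = 0.897). Itgb5, the β chain of a second vitronectin receptor, differed by 0.07 ± 0.10 (SE, adjusted p = 0.918). Its promoter window held the telomere repeat motif, as did those of Selp, Cldn1 and Cd44. The smallest adjusted p of all 47 tested genes was 0.874, so the adjusted p of these 4 genes says nothing about the motif.

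Laminin and collagen receptors tie cells to basement membranes and fibrous matrix. Itga6, the α chain of the laminin receptors α6β1 and α6β4, had levels of 5.42, 5.22, 5.43 and 5.22 in Rap1-/- fat, against 5.50, 5.40, 5.35 and 5.47 in WT fat. All 8 values lay between 5.22 and 5.50. Rap1-/- replicates 2 and 4 were the lowest and the other 2 lay inside the WT range. The difference was -0.11 ± 0.09 (SE, adjusted p = 0.886), and it became 0.12 when arrays were scaled to the E1A controls. Itgb4, its partner in hemidesmosomes, differed by -0.11 ± 0.15, Itga7, the laminin receptor of muscle, by -0.03 ± 0.13, and Itga3 by 0.10 ± 0.13. Skeletal muscle markers varied widely between arrays: their mean level, each gene set to its own mean, was -3.68, 3.20, 2.13 and -4.85 in Rap1-/- fat, against 1.83, 0.25, -0.71 and 1.82 in WT fat. The 2 highest and the 2 lowest arrays were all Rap1-/-, and the part of muscle in the values of Itga7, Cdh2 and Ncam1 was not tested. Itga1, a collagen receptor of stromal cells, had a difference of 0.05 ± 0.16, and a second, dimmer probe of the gene differed by -0.10.

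The α4 and β7 chains carry leukocytes onto vessel walls that display Vcam1 or Madcam1, and α9 binds Vcam1 as well as matrix. Itga4 differed by 0.07 ± 0.18, Itgb7 by 0.04 ± 0.15 and Itga9 by 0.13 ± 0.12. Their ligand Vcam1 spanned 1.70 to 2.30 in Rap1-/- fat and 1.95 to 2.48 in WT fat, with a difference of -0.15 ± 0.16 (SE, adjusted p = 0.904); a second Vcam1 probe had a difference of 0.14, of the opposite sign. Madcam1, the ligand of α4β7 on mucosal vessels, had levels of -3.65, -3.54, -2.84 and -2.47 in Rap1-/- fat, against -2.82, -2.74, -3.10 and -2.76 in WT fat. The 2 Rap1-/- arrays of slide 1 were the lowest of the 8 and 1 of those of slide 2 was the highest, so the Rap1-/- values enclosed the WT values. The difference was -0.27 ± 0.26 (SE, adjusted p = 0.898), with -0.81 on slide 1 and 0.28 on slide 2.

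The β2 integrins belong to leukocytes. Itgb2 had levels of -0.21, -0.20, -0.59 and -0.58 in Rap1-/- fat, against -0.55, -0.16, -0.59 and -0.44 in WT fat, and its α partner Itgax (CD11c) had -0.74, -0.63, -1.47 and -1.33 in Rap1-/- fat, against -1.37, -0.41, -1.14 and -0.98 in WT fat. The same 3 arrays, Rap1-/- replicates 1 and 2 and WT replicate 2, were the highest for both chains. The differences were 0.04 ± 0.14 for Itgb2 and -0.07 ± 0.26 for Itgax. Itgam (CD11b) differed by -0.14 ± 0.13 and Itgal (CD11a, the lymphocyte chain) by -0.08 ± 0.27. As a group the 5 leukocyte subunits had a median of 0.15 on slide 1 and -0.18 on slide 2. Macrophage markers, 7 of 8 above 0 with a median of 0.14, summed to 46.7 to 64.7 in Rap1-/- fat and 42.9 to 55.2 in WT fat; their part in the integrin values was not tested.

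**Figure D2:**
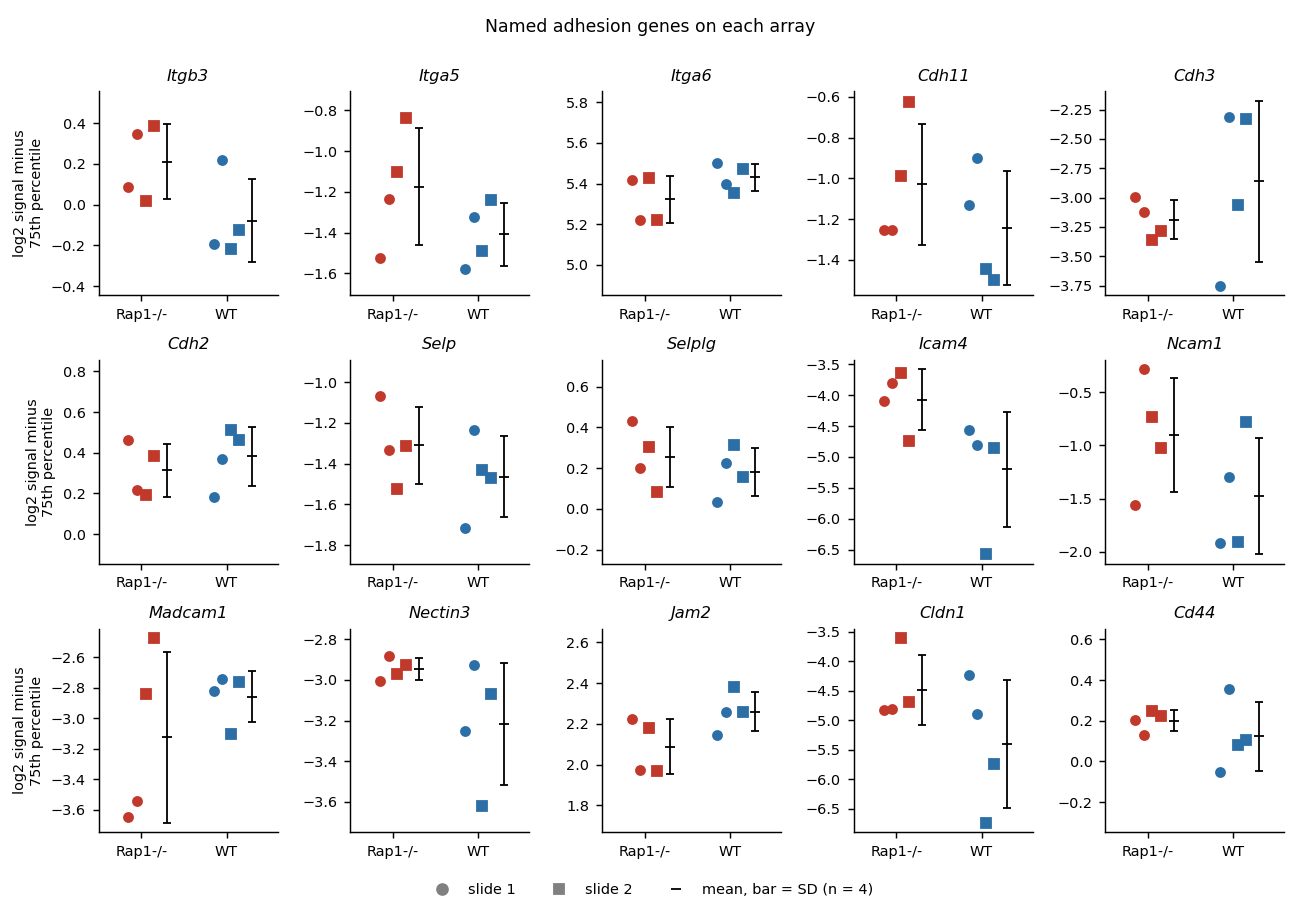
Level of 15 adhesion genes (log2 processed signal minus the array's 75th percentile, y axis) on each Rap1-/- (red) and WT (blue) array; circles are slide 1, squares slide 2, and the bar is the mean with its SD (n = 4 mice). The genotypes overlap in each of the 15 genes, and the lowest Icam4 and Cldn1 values are both those of WT replicate 3.

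Icam1, Icam2 and Icam4 are Ig-type ligands of the β2 integrins, and Icam1 and Icam4 are neighbours on chromosome 9 (GRCm38.p6). Icam1, the inducible ligand of vessel walls and immune cells, had a level of -2.42 ± 0.12 in Rap1-/- fat and -2.50 ± 0.22 in WT fat (SD, n = 4 each), a difference of 0.08 ± 0.13 (SE, adjusted p = 0.937). Icam2, which endothelium carries constitutively, differed by 0.01 ± 0.14 (SE, adjusted p = 0.995). Icam4 is known as the Landsteiner-Wiener antigen of red blood cells. Its levels were -4.10, -3.80, -3.64 and -4.75 in Rap1-/- fat, against -4.56, -4.80, -6.58 and -4.86 in WT fat. The WT value of replicate 3 lay far below the others, and the lowest Rap1-/- value lay within the WT range. WT replicate 3 had the lowest 75th percentile (302) and the highest limit of detection (-4.68) of all arrays. On that array a probe of Ocln, a gene not detected on any array, lay at -6.74. The fitted difference was 1.13 ± 0.45 (SE, adjusted p = 0.874), with an unadjusted p of 0.0364, and it rests on the WT signals described next.

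Icam4 was measured at the edge of detection. Its signal was called well above background on all 4 Rap1-/- arrays but on only 1 of the 4 WT arrays, so that it reached the test only through one genotype and 3 of its WT values were not well above background. Without WT replicate 3 the difference was 0.67, under normexp background correction it was 0.04, and in the deposited value table it was 0.21. Ncam1 had the larger difference under both of these (0.37 and 0.44). The unadjusted p of Icam4 in limma was 0.66 under normexp, 0.0539 in the deposited table, 0.0658 with the replicate number as a block, and 0.0638 to 0.0879 without Rap1-/- replicate 1, 2 or 3. It stayed under 0.05 when any 1 WT array was left out, replicate 3 included. The same held with slide as a block and under median, quantile and E1A scaling. Its upstream sequence, printed above, held no telomere repeat motif.

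Ncam1, the neural cell adhesion molecule, which also marks nerve and some lymphoid and stromal cells, had levels of -1.56, -0.29, -0.74 and -1.02 in Rap1-/- fat, against -1.92, -1.30, -1.91 and -0.78 in WT fat. The highest value was Rap1-/- replicate 2, the next were Rap1-/- replicate 3 and WT replicate 4, and the genotypes overlapped over most of their range. The difference was 0.58 ± 0.33 (SE, adjusted p = 0.874), with an interval of 0.877 to 2.53-fold. It was 0.69 on slide 1 and 0.46 on slide 2. Of 2 dimmer Ncam1 probes, 1 differed by 0.15. The other, detected on 3 Rap1-/- arrays and 1 WT array, differed by 0.67 and passed the detection filter mainly through 1 genotype. Alcam, a ligand of CD6 on T cells, differed by -0.05 ± 0.12 (SE, adjusted p = 0.958).

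The 7 Ig-type genes together, 4 above 0 and 3 below, had a median difference of 0.01. WT replicate 3, the array with the lowest Icam4 and Cldn1 values, was the lowest for mesothelial markers, at -1.04, where the other WT arrays were at -0.26 to 0.26 and the Rap1-/- arrays at 0.12 to 0.42. All 10 tested mesothelial markers had a difference above 0, with a median of 0.21 on slide 1 and 1.05 on slide 2. Of these, 4 (Krt8, Gpm6a, Upk1b and Bnc1) were higher at an unadjusted p under 0.05, where 1.67% of all genes were. The summed level of the 10 was 40.4 to 50.1 in Rap1-/- fat and 17.7 to 46.0 in WT fat. Adipocyte markers ran the other way: 8 of 9 had a difference below 0, with a median of -0.21. Scaling to the E1A controls raised the median of all genes by 0.23, more than the size of this median, and the markers are given without it. Cidec, Fabp4, Lipe and Retn were lower at an unadjusted p under 0.05, against 3.31% of all genes, and in 2 of the 9 the genotypes did not overlap, against 3.26% of all genes. Lep was at 0.63, and the summed level of the 9 was 3120 to 3410 in Rap1-/- fat and 3380 to 4180 in WT fat. The part of mesothelium and of adipocytes in the adhesion values was not tested.

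The cadherins were 3 tested genes of 4. Cdh1 (E-cadherin), the adhesion protein of epithelia, was not well above background on any array. Cdh11, the cadherin of mesenchymal cells and fibroblasts, had levels of -1.25, -1.26, -0.99 and -0.62 in Rap1-/- fat, against -1.13, -0.90, -1.44 and -1.50 in WT fat. On slide 2 both Rap1-/- values lay above both WT values, with a difference of 0.67, whereas on slide 1 both lay below both WT values, with a difference of -0.24. The fit over both slides gave 0.21 ± 0.19 (SE, adjusted p = 0.890). A second, dimmer Cdh11 probe differed by -0.01. Fibroblast markers had a median difference of 0.10 on slide 1 and 0.39 on slide 2, and their part was not tested.

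Cdh3 (P-cadherin) had levels of -2.99, -3.12, -3.36 and -3.28 in Rap1-/- fat, against -3.75, -2.31, -3.06 and -2.33 in WT fat. The Rap1-/- values lay close together, in the middle of the widely spread WT values. The difference was -0.33 ± 0.31 (SE, adjusted p = 0.897), with an interval of 0.487 to 1.30-fold. It depended on single WT arrays, at -0.62 without replicate 1 (unadjusted p = 0.0185 in limma), -0.14 without replicate 2 and -0.15 without replicate 4. Cdh2 (N-cadherin), found in muscle, nerve and stromal cells, had levels of 0.46, 0.22, 0.19 and 0.38 in Rap1-/- fat, against 0.18, 0.37, 0.51 and 0.46 in WT fat. The genotypes overlapped in full, and the difference was -0.07 ± 0.11 (SE, adjusted p = 0.932). Cdh1, Cdh3 and Cdh11 lie on chromosome 8, as does Terf2ip, the deleted gene.

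In the selectin system Sele (E-selectin), which inflamed endothelium displays, was not well above background on any array. Selp (P-selectin), stored in platelets and endothelium, had levels of -1.07, -1.33, -1.52 and -1.32 in Rap1-/- fat, against -1.72, -1.24, -1.43 and -1.47 in WT fat. Its highest value was Rap1-/- replicate 1 and its lowest WT replicate 1, and the other 6 lay between -1.52 and -1.24 with no separation of the genotypes. The difference was 0.15 ± 0.13 (SE, adjusted p = 0.890). Selplg (PSGL-1), the leukocyte ligand of selectins, had levels of 0.43, 0.20, 0.30 and 0.08 in Rap1-/- fat, against 0.03, 0.23, 0.31 and 0.16 in WT fat, and a difference of 0.07 ± 0.10 (SE, adjusted p = 0.922). On slide 2 that difference was -0.04. Endothelial markers were below 0 for 8 of 9 genes, with a median of -0.05 and a summed level of 100 to 164 in Rap1-/- fat and 129 to 157 in WT fat; their part in the selectin values was not tested.

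Of 9 tight junction genes, 8 were tested, and Ocln (occludin) was not well above background on any array. Cldn1, the claudin of the epidermal barrier and other tight epithelia, had levels of -4.84, -4.82, -3.61 and -4.70 in Rap1-/- fat, against -4.24, -4.90, -6.75 and -5.75 in WT fat. Rap1-/- replicate 3 was the highest of the 8 and WT replicates 3 and 4 the lowest, while the other 5 arrays mixed the genotypes. The difference was 0.92 ± 0.53 (SE, adjusted p = 0.874). Like Icam4, Cldn1 was detected on all 4 Rap1-/- arrays and on 1 WT array, under unlike detection limits. The gene was thus tested only through 1 genotype. Its difference was -0.26 on slide 1 and 2.09 on slide 2. It was 0.47 without WT replicate 3, 0.62 without Rap1-/- replicate 3 and -0.02 under normexp background correction. Among epithelial markers 3 of 8 lay above 0 and 5 below, with a median of -0.08. Krt7 (0.70) and Krt14 (0.36) were higher at an unadjusted p under 0.05, where 1.67% of all genes were. Esrp2 (-0.32) and Grhl2 (-0.31) were the lowest. The part of epithelium in the Cldn1 value was not tested. Cldn3 was detected on 3 Rap1-/- arrays and 1 WT array, with a difference of 0.24 ± 0.33, and Cldn4 and Cldn7 differed by -0.17 ± 0.30 and -0.14 ± 0.20.

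Junctional adhesion molecules line tight junctions and the contacts of vessel walls. Jam2, found on endothelium, had levels of 2.22, 1.97, 2.18 and 1.97 in Rap1-/- fat, against 2.14, 2.26, 2.38 and 2.26 in WT fat. Rap1-/- replicates 2 and 4 were the lowest of the 8 and Rap1-/- replicates 1 and 3 lay inside the WT range. The difference was -0.17 ± 0.10 (SE, adjusted p = 0.874), an interval of 0.760 to 1.03-fold, and it was 0.05 after scaling to the E1A controls. Jam3 differed by -0.04 ± 0.12, F11r (JAM-A) by 0.18 ± 0.15, and Tjp1 (ZO-1), the scaffold below the tight junction, by 0.04 ± 0.15.

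Nectins start cell contacts before cadherins assemble. Nectin3 had levels of -3.00, -2.88, -2.97 and -2.93 in Rap1-/- fat, against -3.25, -2.93, -3.62 and -3.07 in WT fat. The Rap1-/- values lay close together, 1 WT value fell among them, and 3 WT values lay below all of them. The difference was 0.27 ± 0.15 (SE, adjusted p = 0.874), and it was -0.08 under normexp background correction. Nectin1 and Nectin2 differed by 0.03 ± 0.09 and 0.02 ± 0.15.

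In desmosomes, Dsp (desmoplakin) and Dsg2 (desmoglein 2) were too dim to test. Jup (plakoglobin), shared by desmosomes and cadherin junctions, differed by 0.09 ± 0.17 (SE, adjusted p = 0.946). Pkp2 (plakophilin 2) spanned 2.56 to 3.52 in Rap1-/- fat and 2.36 to 3.06 in WT fat, with Rap1-/- replicate 1 the highest, and its difference was 0.58 on slide 1 and -0.21 on slide 2.

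A cytoplasmic plaque ties integrins to actin. Ptk2 (focal adhesion kinase) had levels of 0.63, 0.67, 0.61 and 0.71 in Rap1-/- fat, against 0.66, 0.69, 0.62 and 0.66 in WT fat. All 8 values lay between 0.61 and 0.71, and the difference was 0.00 ± 0.07, an interval of 0.892 to 1.11-fold. Vcl (vinculin), which anchors actin at focal adhesions, differed by -0.01 ± 0.08 with an interval of 0.875 to 1.13-fold. Tln1 (talin 1), which switches integrins to their active form, differed by 0.07 ± 0.08 with an interval of 0.927 to 1.20-fold, and a dimmer Tln1 probe differed by -0.14.

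Cd44, the hyaluronan receptor of leukocytes and stromal cells, had levels of 0.20, 0.13, 0.25 and 0.22 in Rap1-/- fat, against -0.05, 0.35, 0.08 and 0.11 in WT fat. The Rap1-/- arrays lay close together and inside the span of the WT arrays, and the difference was 0.08 ± 0.10 (SE, adjusted p = 0.916). A dimmer Cd44 probe differed by 0.03. Another, detected on 3 Rap1-/- arrays and 1 WT array, differed by -0.09. Epcam, an adhesion molecule of simple epithelia, was too dim to test.

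Because both slides held 2 mice of each genotype, each gene gave a difference per slide. The sign was the same on both slides for 25 of the 47 adhesion genes (53.2%), 16 of them above 0 and 9 below, against 59.3% of all genes. The median of the 47 was 0.03 on either slide.

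**Figure D3:**
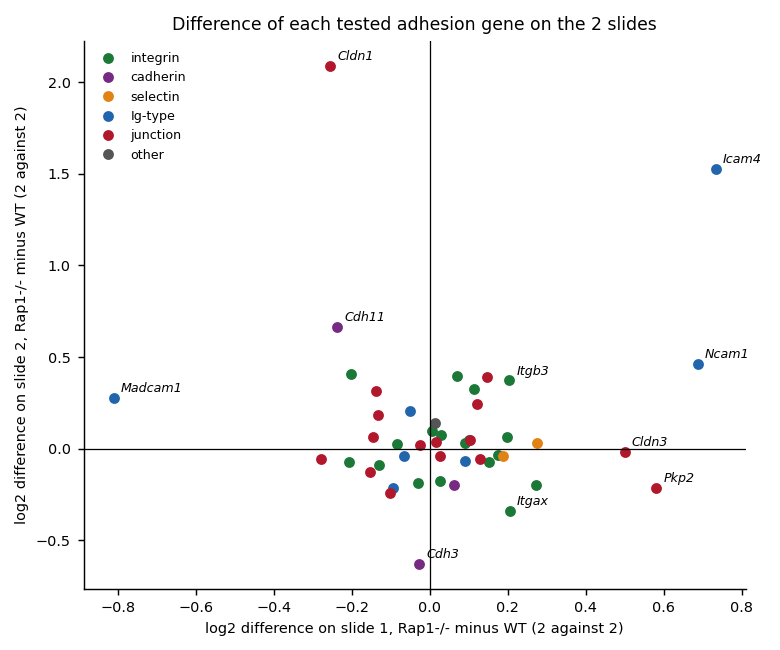
Log2 difference, Rap1-/- minus WT, of each tested adhesion gene on slide 1 (x axis) and on slide 2 (y axis), each from 2 mice per genotype, coloured by family. Icam4 is above 0 on both slides (0.73 and 1.53), whereas Cldn1 is at -0.26 on slide 1 and 2.09 on slide 2.

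The family medians lay between -0.07 and 0.11. The paper's gene set enrichment analysis of this fat names networks of cell adhesion and of contact between cells as enriched in Rap1-/- mice. That analysis scored whole gene sets, whereas the values here are per gene, and no set test was run here. Junction genes, 10 of 16 above 0, had a median of 0.03 and a mean level of 0.05 ± 0.08 in Rap1-/- fat and -0.05 ± 0.08 in WT fat. The cadherin median was -0.07 (0.16 under E1A scaling), the selectin median 0.11 and the Ig-type median 0.01. The array means of the genotypes overlapped in each of the 5 families.

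**Figure D4:**
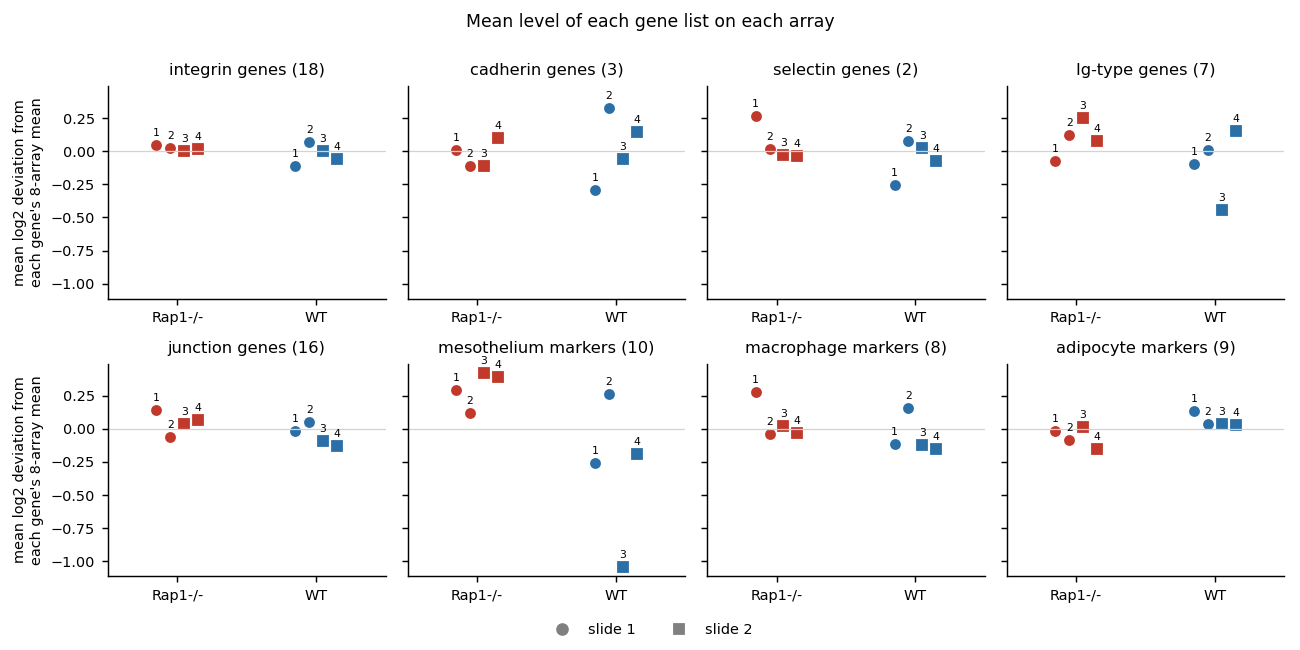
Mean level of each gene list on each array (y axis, log2, each gene set to its own mean over 8 arrays; number of genes in parentheses) in Rap1-/- (red) and WT (blue) fat, with replicate numbers beside the points. The 5 adhesion families overlap between genotypes, the Ig-type mean of WT replicate 3 includes its Icam4 value of -6.58, mesothelial markers are lowest on WT replicate 3 (-1.04), and adipocyte markers lie at -0.15 to 0.01 in Rap1-/- fat and 0.03 to 0.14 in WT fat.

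A further 113 adhesion genes, chosen by name to complete the same pathways, were measured in the same way. Of these 84 were tested, 45 above 0 and 39 below, with a median of 0.01, and none passed the adjusted threshold. At an unadjusted p under 0.05, 4 of the 84 (4.76% in both directions together) were higher in Rap1-/- fat and 0 lower, where 1.67% of all genes were higher and 3.31% lower (4.98% together). They were Cldn19 (0.76 ± 0.27, detected on 4 Rap1-/- arrays and 1 WT array), Perp, a desmosomal membrane protein (0.55 ± 0.22), Pdlim7, a LIM protein of the actin plaque (0.36 ± 0.16), and Tjap1, a tight junction-associated protein (0.17 ± 0.07), each with an adjusted p of 0.874. Cldn19 thus reached the test through one genotype. Tjap1 was the 1 gene of the 84 whose genotypes did not overlap, against 3.26% of all genes. The focal adhesion plaque list had a median of 0.02 over 21 genes, with 20 intervals within 2-fold, and the catenins, which link cadherins to actin, had a median of -0.01 over 5 genes.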

How the data were processed

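Agilent one-colour arrays measured Cy3-labelled total RNA of gonadal white fat from 4 Rap1-/- and 4 WT mice. The authors quantified the images with Agilent Feature Extraction (version 10.7.3.1 per the file headers), and the scanner output they deposited gives a processed, already background-corrected intensity for every spot, with detection flags. The deposited value table holds log2 values made by the authors; its columns followed normexp correction and quantile normalisation at r of at least 0.99998, and it served as an alternative. The submitters' notes name limma; the array design was built on mm9.

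Here log2 of the processed intensity minus each array's 75th percentile was used, control and outlier spots were left out, spots of a probe were averaged, probes flagged as detected (well above background) on 4 or more arrays were kept (33983 of 55681), and the brightest probe stood for a gene. Probes were named through RefSeq accessions (GRCm38.p6, 26056 probes, 19752 symbols). Genotypes were compared with limma 3.58.1 in R 4.3.3 over all 25065 genes and transcripts, with Benjamini-Hochberg adjustment; the script was tested on simulated data. GEO's labels call the samples biological replicates, and p-values measure the spread between them. The members and lists were chosen with earlier results of these data known. Values on every array are given for the 3 members of each family with the smallest p and for all members of families of 3 or 4. The same holds for members with an unadjusted p under 0.05. It also holds for members detected on all arrays of 1 genotype and on 1 or fewer of the other. Values per array of Itgb2, Itgax and Ptk2 were added after their values were seen. Marker and further adhesion lists were fixed by name; epithelial markers (3 of 8 above 0, median -0.08), lymphocyte markers (7 of 9, 0.11), mural cell markers (5 of 7, 0.25) and skeletal muscle markers (1 of 10, -1.35, median SD within a genotype 2.86) complete those given in the text. No replicate pairing was used in the main comparison. Alternatives covered background, scaling, probe filter, probe choice, slide, replicate block, variance model and the omission of each array.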

Additional observations from a re-analysis of the deposited data

Results flagged for a closer look

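In 2 of the 40 groups of 4 values examined (15 genes and 5 family means in both genotypes), a single array stood apart from the other 3 of its genotype; chance alone does so in about 1 of 20 groups. Icam4 on WT replicate 3 was at -6.58, where the other WT arrays lay between -4.86 and -4.56. Cldn1 on Rap1-/- replicate 3 was at -3.61, where the other Rap1-/- arrays lay between -4.84 and -4.70.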

How the results depend on the processing

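No adhesion gene passed the adjusted threshold in any of the 21 alternatives, and of 313 values of the 15 named genes 303 kept their sign. Normexp background correction turned Nectin3 to -0.077 and Cldn1 to -0.020. Scaling to the E1A controls moved the median of all genes by 0.23, to 0.19, and with it Itga6 to 0.12, Cdh2 to 0.16 and Jam2 to 0.052; the family medians became 0.28 (integrin), 0.16 (cadherin), 0.34 (selectin), 0.24 (Ig-type) and 0.26 (junction). Scaling to the median gave an integrin median of 0.11. Within slide 1 alone Cdh11 was at -0.24, Cdh2 at 0.063 and Cldn1 at -0.26, and within slide 2 alone Selplg was at -0.042 and Madcam1 at 0.28. The number of adhesion genes with an unadjusted p under 0.05, which was 1 of 47 with the settings of the report (4.98% of all genes in either direction), was 4 under E1A scaling (Icam4, Itga5, Itgb3, Ncam1; 5.78% of all genes), 3 within slide 2 (Cdh11, Cldn1, Itga3; 3.52%), 2 within slide 1 (Icam4, Madcam1; 4.52%), 2 under normexp (Cdh3, Itgb3; 4.98%), 2 of 56 without a filter on dim probes (Dsp, Icam4; 4.58%), 0 of 44 with probes well above background on all 8 arrays (5.33%), and 1 to 3 when 1 array was left out: 3 without WT replicate 1 (Cdh3, Cldn1, Icam4, against 3.3% of all genes), 3 without WT replicate 2 (Icam4, Itgb3, Nectin3, against 9.2%), 2 without WT replicate 4 (Icam4, Ncam1, against 6.12%) and 2 without Rap1-/- replicate 1 (Itga5, Ncam1, against 3.49%). Of all genes 2 passed the adjusted threshold under normexp, the deposited table and the trended robust fit, and 0 within either slide. For the pairing of replicates, same-numbered samples lay on the same slide, but their deviations correlated at -0.22 to -0.13, and each Rap1-/- sample correlated best with the WT sample of the other number on its slide, so the numbers were not taken as pairs; with the replicate number as a block 1 gene passed, as without it, and 1 adhesion gene (Itgb3) had an unadjusted p under 0.05. Why these values moved was not tested. Dim probes such as Icam4, Cldn1 and Cldn3 carry little signal over background.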
